A study of Mus musculus with 2 samples.

Results

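Mitotic and spindle genes are the genes that a cell switches on to enter and complete division. The 50 genes described here were taken by symbol from a list, and all 50 were found among the 16218 named genes of the deposited table. RNA came from mouse bone marrow-derived macrophages, which are macrophages grown from marrow cells, here of C57BL/6J mice and over 5 days in medium with L929 supernatant as a source of macrophage colony-stimulating factor. All cells had received lipopolysaccharide (LPS), a bacterial cell wall component, at 10 ng/ml for 3 h before lysis. WT cells had Lyz2-Cre and no microRNA cluster allele named in the labels. TKO cells were mir-106a~363-/- and mir-106b~25-/-, together with mir-17~92flox/flox and Lyz2-Cre. Both groups thus carried the Cre recombinase, which the Lyz2 promoter expresses in myeloid cells. The mir-17~92 cluster was floxed and so deleted only where that Cre acts, while the other clusters were null alleles. How many mice went into a library is not known here, and no library of cells without LPS was analysed here.

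Each genotype had 1 library, so no difference below has a replicate check, and genotype cannot be told apart from anything else that differed between both cultures. Total counts were 10764519 in WT and 10836855 in TKO. Levels are given as estimated read counts, as counts per 1000000 of the library total (CPM), or, for comparisons between genes, as the authors' FPKM, a level scaled for transcript length and library size. Folds are ratios of CPM, followed in parentheses by an exact 95% counting interval (Clopper-Pearson). "Lower" and "higher" are written only where that interval excluded equality, and the interval covers counting error in these 2 libraries and nothing else. Log2 ratios are TKO over WT with 0.5 CPM added to each. A gene was counted as 1.5-fold apart where its log2 ratio reached that size and its interval excluded equality. The genotypes could be checked only through host transcripts. Mir17hg, the host of the floxed cluster, had 16 counts in each library and thus did not show the deletion, and the table does not say whether these reads came from inside the floxed stretch. Mcm7, which holds the mir-106b~25 cluster in an intron and codes a replication helicase subunit, had 608 counts in WT and 496 in TKO. Neither checks the labels, so TKO means throughout the library labelled so.

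Entry into mitosis is driven by CDK1 bound to A- and B-type cyclins, with Aurora and Polo kinases building the spindle. Kinetochores attach chromosomes to spindle microtubules, the spindle checkpoint holds back the anaphase-promoting complex until all are attached, and kinesins and the central spindle then separate the chromosomes and the daughter cells. Transcription of these genes peaks in G2 and mitosis through the DREAM, B-MYB and FOXM1 complexes, which use a promoter element named the cell cycle genes homology region (CHR). Bone marrow-derived macrophages divide in response to macrophage colony-stimulating factor, and LPS is known to slow that division.

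The TKO library had slightly less of most mitotic transcripts. Of the 50 genes, 47 had a log2 ratio below 0, against 57.4% of the 11662 measured genes (mean of at least 1 CPM). The median log2 ratio of the 50 was −0.31, beside −0.04 for all measured genes. Together they held 55061 counts in WT and 46039 in TKO, which was 1.20-fold less (1.19 to 1.22). Without Mki67 and Top2a, which gave 22% and 11.3% of the WT sum, the summed fold was 1.24 (1.22 to 1.26), a split chosen after the values were seen. In a bulk library, fewer dividing cells and less of these RNAs per dividing cell cannot be told apart.

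The differences were small gene by gene. The interval lay below equality for 41 genes, against 20.2% of measured genes, and above it for 2 genes, against 14.1%. For the remaining 7 genes it included equality. Under TMM scaling, an alternative to the library totals, 33 genes were lower. The counts by role below use the library totals, and genes with a bound close to equality depend on that choice. Only 5 genes were 1.5-fold lower, where 5.26% of measured genes were, and 0 were 1.5-fold higher, where 2.83% were. The middle of the list, from the lower to the upper quartile, ran from −0.44 to −0.19. Because the interval narrows with depth, the 47 genes with a mean of 10 to 200 CPM were also set beside all 6895 genes of that range. There 38 of 47 were lower, against 22.0% of genes, and 4 were 1.5-fold lower, against 3.18%. In the authors' deposited table, 33 of the 50 had an adjusted value of at most 0.05 with a lower TKO level, as did 14.7% of the measured genes. That table compares the same libraries, and its test is not named in the labels. Reads could be shared for 15 of the 50 genes, whose estimates were not whole (Foxm1, Birc5, Ube2c, Cenpf, Ndc80, Nuf2, Spc24, Kif11, Kif15, Kifc1, Tpx2, Hmmr, Dlgap5, Racgap1 and Prc1). Another annotated gene overlapped an exon of 13 (Ccna2, Foxm1, Plk1, Nek2, Cdca8, Cdc20, Ube2c, Kif4, Kif20a, Tacc3, Nusap1, Prc1 and Top2a). The values of these genes are less certain for that reason.

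**Figure D1:**
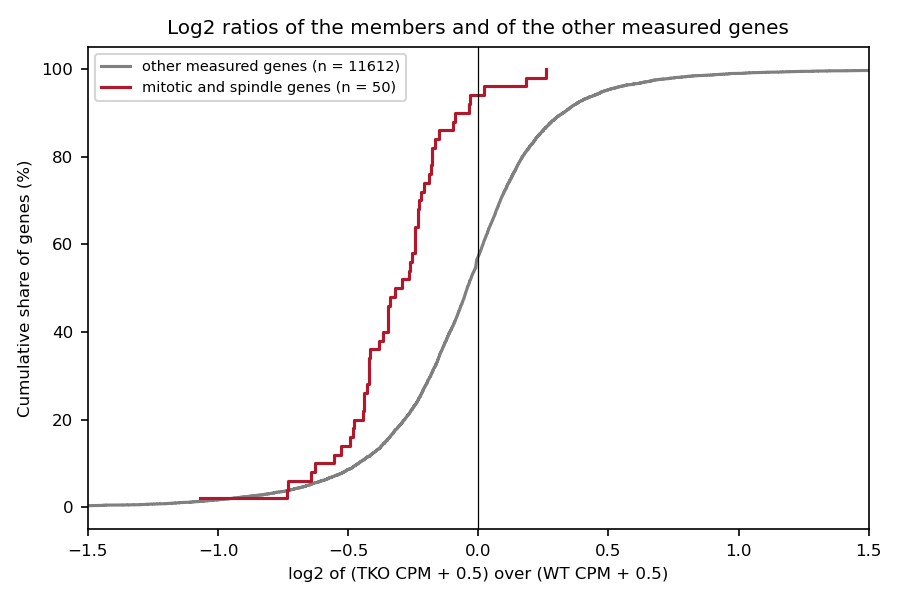
Cumulative share of genes (vertical axis, percent) by log2 ratio of TKO over WT (horizontal axis), for the 50 mitotic and spindle genes in red and the other measured genes in grey. The red curve lies to the left of the grey one over most of its course, with a median of −0.31 against −0.04 for all measured genes, and ends at 0.26.

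What these genes share in sequence was examined next, since they also share a regulatory element that the list did not use. RefSeq promoters (assembly GRCm38.p6, 250 bases before to 50 after the transcription start) were matched for 42 of the 50 genes. Of their 45 windows, 38 ended in bases found in an annotated transcript of the gene, so the start is less certain for the rest. The windows of Mad2l1 and Mybl2 ended before the gene start annotated in GENCODE M21, and both genes count below as without TTTGAA. Those of Kif2c, Cdca8, Cdca3 and Kif4 lay wholly inside the gene annotated there, and these genes count as with TTTGAA. The genes not matched were Aurkb, Ccna2, Dlgap5, Foxm1, Incenp, Kif20a, Spc24 and Tpx2. The CHR element, searched as TTTGAA on both strands, was present in 31 of the 42 (73.8%), against 20.2% of all 27025 genes with a promoter and 14.4% of the 8995 measured ones. CCAAT, the element bound by NF-Y, also on both strands, was in 28 (66.7%), against 41.1% of all genes. Both were found in the same window for 24 genes (57.1%), against 7.97% of all. The variant TTTAAA was in 9 (21.4%), against 14.9%. Matches to TTTGAA and TTTAAA cannot share letters, whereas either can share its end letter with a CCAAT match. The stretches around the CHR match nearest the start are shown for 10 genes, ordered from the lowest to the highest TKO to WT ratio, because the element is common to genes at both ends of that order. Each is written 5′ to 3′ on the gene's strand, with TTTGAA, or TTCAAA where the match was on the other strand, in capitals.
Cdca5 (chr19:6085068-6085113, + strand): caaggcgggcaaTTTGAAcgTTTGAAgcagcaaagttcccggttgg
Aurka (chr2:172370521-172370558, - strand): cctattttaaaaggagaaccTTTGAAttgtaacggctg
Kifc1 (chr17:33890607-33890652, - strand): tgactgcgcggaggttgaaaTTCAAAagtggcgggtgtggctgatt
Racgap1 (chr15:99651626-99651671, - strand): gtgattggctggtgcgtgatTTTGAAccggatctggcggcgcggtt
Cenpa (chr5:30666882-30666927, + strand): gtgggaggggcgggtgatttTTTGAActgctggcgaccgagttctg
Ccnb2 (chr9:70421525-70421570, - strand): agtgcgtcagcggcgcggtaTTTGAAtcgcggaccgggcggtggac
Ttk (chr9:83834676-83834721, + strand): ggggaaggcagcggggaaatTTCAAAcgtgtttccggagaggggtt
Prc1 (chr7:80294426-80294471, + strand): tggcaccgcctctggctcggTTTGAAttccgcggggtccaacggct
Cenpf (chr1:189688059-189688104, - strand): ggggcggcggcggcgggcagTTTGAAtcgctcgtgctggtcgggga
Kif23 (chr9:61946772-61946817, - strand): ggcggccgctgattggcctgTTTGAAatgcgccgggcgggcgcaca

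The stretches of Cdca5 to Ccnb2 belong to genes that were lower in TKO, and those of Cenpf and Kif23 to 2 of the 3 genes above 0. The element lay close to the start: its first base was at a median of 5 bases after it, with quartiles of −16.5 and 20, and within 50 bases of it in 29 of 31 genes (93.5%). Among all 5466 genes with the element the median distance was −114 and 28.3% lay within 50 bases. This range was chosen after the distances were seen.

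**Figure D2:**
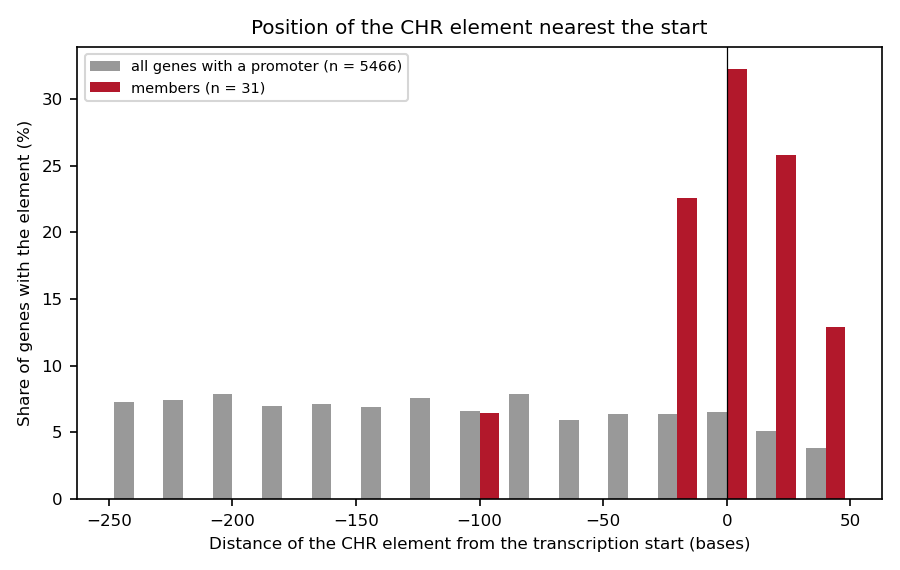
Distance in bases from the transcription start to the nearest CHR element (horizontal axis, 20-base classes, bars side by side) for the 31 mitotic and spindle genes with the element (red) and all 5466 genes with it (grey), as a share of each set (vertical axis, percent). The red bars gather around the start, with 93.5% within 50 bases of it, while the grey bars spread over the whole window.

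Whole promoters are shown for Cdk1 and Ccnb1, because these genes code the kinase and the cyclin of 1 complex and differ in the CHR. CCAAT (or ATTGG) and TTTGAA are in capitals.
Cdk1 (chr10:69352863-69353162, - strand): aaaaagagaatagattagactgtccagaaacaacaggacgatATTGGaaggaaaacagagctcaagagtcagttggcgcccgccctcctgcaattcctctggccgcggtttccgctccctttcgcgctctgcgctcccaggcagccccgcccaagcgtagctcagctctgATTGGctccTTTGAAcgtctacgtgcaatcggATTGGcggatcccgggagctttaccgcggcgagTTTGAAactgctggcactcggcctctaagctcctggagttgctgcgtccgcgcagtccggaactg
Ccnb1 (chr13:100786437-100786736, - strand): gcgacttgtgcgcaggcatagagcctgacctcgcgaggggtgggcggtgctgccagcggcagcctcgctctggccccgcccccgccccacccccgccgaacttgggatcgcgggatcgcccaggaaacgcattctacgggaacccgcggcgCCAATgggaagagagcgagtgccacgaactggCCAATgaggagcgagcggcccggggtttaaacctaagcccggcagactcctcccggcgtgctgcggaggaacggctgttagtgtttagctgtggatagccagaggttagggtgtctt

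The Cdk1 window held 2 matches to TTTGAA beside its CCAAT matches, whereas that of Ccnb1 held CCAAT matches and a TTTAAA but none to TTTGAA. Both genes were lower in TKO to a similar degree, as given below. The presence of TTTGAA did not sort the genes by size of difference: the median log2 ratio was −0.26 in the 31 genes with it and −0.35 in the 11 without it. The variant TTTAAA was not used for these classes, so a gene such as Ccnb1 counts as without. Over all measured genes with a promoter the medians were −0.04 in both classes. A match is a description of the letters, and a missing match says nothing about binding.

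The deleted clusters code microRNAs of 4 seed families, of which 1 member each is shown with its seed (bases 2 to 8) in capitals, because matches to these seeds in a 3′ UTR mark the transcripts these microRNAs could bind.
mmu-miR-17-5p: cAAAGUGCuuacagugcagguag
mmu-miR-18a-5p: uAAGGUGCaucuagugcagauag
mmu-miR-19a-3p: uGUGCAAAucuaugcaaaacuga
mmu-miR-92a-3p: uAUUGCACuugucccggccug

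The seed of miR-17-5p is shared by miR-20a, miR-20b, miR-93, miR-106a and miR-106b, that of miR-18a-5p by miR-18b, that of miR-19a-3p by miR-19b, and that of miR-92a-3p by miR-25 and miR-363. In the longest annotated 3′ UTR (GENCODE M21), 13 of the 50 mitotic genes (26%) had a match to at least 1 of these seeds, against 34.3% of 10874 measured genes with a 3′ UTR. Their 3′ UTRs were also shorter, with a median of 725 bases against 1222. A miR-17 match was in 3 genes (6%, against 15% of measured genes), a miR-19 match in 4 (8%, against 13.5%), a miR-18 match in 7 (14%, against 9.43%) and a miR-92 match in 1 (2%, against 7.69%). The 3 miR-17 matches, the miR-19 match of Spc24 and the miR-18 match of Racgap1 are shown with the letters opposite the seed in capitals.
Foxm1: gacggggttGCACTTTgcttctgc
Cep55: tctttatagGCACTTTaaaccaca
Kif23: aaaaaaaatGCACTTTagacatat
Spc24: tgtggcatgTTTGCACtcacacac
Racgap1: ggacacttaGCACCTTtactagtt

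Foxm1, Cep55 and Kif23, the genes with a miR-17 match, had log2 ratios of −0.48, −0.15 and 0.18. The median was −0.26 in the 13 genes with any match and −0.35 in the 37 without, and −0.01 and −0.06 over all measured genes. Spc24 and Kif23, the 2 genes that were higher in TKO, each had a match, but so did 11 others with ratios below 0.

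Per length, the most abundant of these transcripts were Ube2c, which codes the E2 enzyme that works with the anaphase-promoting complex, and the proliferation genes Mki67 and Top2a. Ube2c had an FPKM of 153.7 in WT and 120.7 in TKO, Mki67 109.8 and 92.8, and Top2a 109.5 and 102.4. The least abundant were Mybl2 (2.14 and 1.24), Espl1 (4.96 and 3.79) and Ttk (5.29 and 5.22). The order of the 50 genes by FPKM was nearly the same in both libraries (Spearman's rho 0.975 across genes). The log2 ratio had no clear relation to WT FPKM (rho −0.022) or to transcript length (rho 0.174). These are descriptions across 50 genes of the same libraries, which are not independent replicates.

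**Figure D3:**
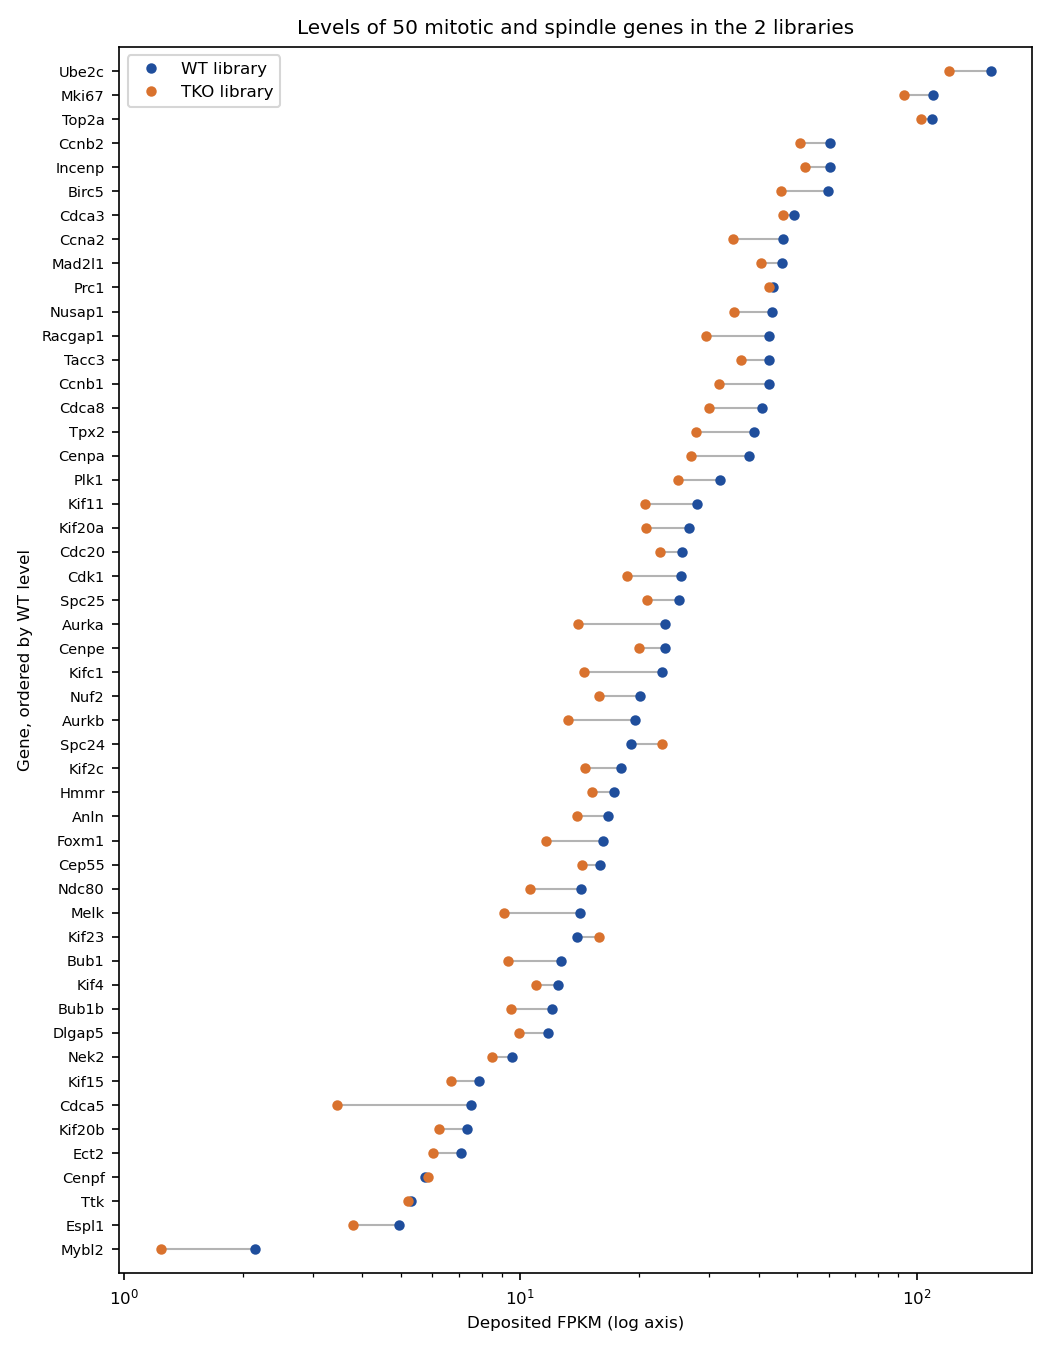
Deposited FPKM (horizontal log axis) of each of the 50 genes in the WT library (blue) and the TKO library (orange), ordered by WT level. The TKO point lies to the left of the WT point for 47 genes, from Ube2c at 153.7 and 120.7 down to Mybl2 at 2.14 and 1.24, and to the right for Spc24, Kif23 and Cenpf.

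CDK1, its cyclins and the mitotic transcription factors were all lower, 6 of 6, with a median log2 ratio of −0.43. Cdk1 (gene 12534, chromosome 10, 69335146 to 69352938), the kinase that triggers mitosis, stood at 785 counts against 580 in TKO and was 1.36-fold lower (1.22 to 1.52). Ccnb1, which codes its main mitotic cyclin, had 1059 and 797 counts, 1.34-fold lower (1.22 to 1.47). Ccna2, the S and G2 cyclin, had 1407 and 1058 counts and the same fold of 1.34 (1.24 to 1.45). These genes differed by similar folds, with intervals that overlapped throughout. Ccnb2 was the nearest to equality, with 998 and 841 counts (1.20-fold lower, 1.09 to 1.31). The transcription factor gene Foxm1 had 771 and 556 counts (1.40-fold lower, 1.25 to 1.56). Mybl2, which codes B-MYB, was 1.73-fold lower, but on 86 and 50 counts its interval was wide (1.21 to 2.51).

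Of the mitotic kinases, 3 of 5 were lower and the other 2 did not differ beyond counting error. Aurka (gene 20878, chromosome 2, 172356190 to 172370535), the kinase of spindle poles, had 476 and 286 counts, 1.68-fold lower (1.44 to 1.95). Tpx2, which codes the protein that activates it on the spindle, had 1792 and 1280 counts (1.41-fold lower, 1.31 to 1.52). Melk, which codes a kinase of proliferating cells, had 445 and 288 counts (1.56-fold lower, 1.34 to 1.81), but was under 1.5-fold when scaled by TMM (log2 ratio −0.58). Plk1, the Polo kinase of mitotic entry, had 760 and 601 counts and was 1.27-fold lower (1.14 to 1.42). The checkpoint kinase gene Ttk had 166 and 163 counts, with a ratio of 0.975 (0.781 to 1.22), and its log2 ratio of −0.03 was above 0 under TMM scaling. Nek2, a centrosome kinase, had 332 and 297 counts, a ratio of 0.889 (0.757 to 1.04).

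All 4 genes of the chromosomal passenger complex, which corrects wrong attachments and starts cytokinesis, were lower. Aurkb, its kinase, had 415 and 283 counts (1.48-fold lower, 1.27 to 1.72). Cdca8, which codes Borealin, had 707 and 524 counts (1.36-fold, 1.21 to 1.52), and Birc5, which codes Survivin, 663 and 497 (1.34-fold, 1.19 to 1.51). Incenp, the scaffold, had 2109 and 1838 counts and was lower by less, at 1.16-fold (1.09 to 1.23). Its interval lay wholly nearer to equality than that of Aurkb.

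Of 8 genes grouped under the spindle checkpoint and the anaphase-promoting complex, 6 were lower. The group also took in Cdca5, Espl1 and Cdca3, which code parts of neither. Cdca5 (gene 67849, chromosome 19, 6084983 to 6091777), which codes sororin, the protector of sister chromatid cohesion, was the farthest apart of all 50 genes. It fell from 154 counts to 71 and was 2.18-fold lower (1.64 to 2.94), and was the only one to reach 2-fold. Bub1 and Bub1b, which code checkpoint proteins, had 598 and 442 counts (1.36-fold lower, 1.20 to 1.54) and 479 and 380 counts (1.27-fold, 1.11 to 1.46). Mad2l1, whose product holds back CDC20, had 847 and 754 counts, only 1.13-fold lower (1.02 to 1.25). Espl1, the separase gene, had 358 and 275 counts (1.31-fold lower, 1.12 to 1.54), and Ube2c 1504 and 1189 (1.27-fold, 1.18 to 1.38). Cdc20, the activator of the anaphase-promoting complex, had 493 and 437 counts, a ratio of 0.881 (0.772 to 1.00). Cdca3 had 780 and 737 counts, a ratio of 0.939 (0.848 to 1.04). Neither of these differed beyond counting error.

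The centromere and kinetochore genes were mixed, with 5 of 7 lower, 1 higher and 1 undecided. Cenpa, the centromeric histone H3 gene, had 584 and 420 counts (1.40-fold lower, 1.23 to 1.59). Cenpe, a kinetochore motor gene, had 1976 and 1709 counts and was lower by less (1.16-fold, 1.09 to 1.24). Cenpf had 698 and 714 counts, a ratio of 1.02 (0.914 to 1.13). The genes of the NDC80 complex, the coupler between kinetochore and microtubule, differed in direction. Of these, Ndc80 (337 and 252 counts, 1.35-fold lower, 1.14 to 1.59), Nuf2 (522 and 412, 1.28-fold, 1.12 to 1.46) and Spc25 (397 and 331, 1.21-fold, 1.04 to 1.40) were lower. The fourth, Spc24 (gene 67629, chromosome 9, 21755442 to 21760303), had 273 and 330 counts and was higher, with a ratio of 1.20 (1.02 to 1.42). The interval of Spc24 did not overlap those of the other NDC80 complex genes. The estimates of Spc24, Ndc80 and Nuf2 were fractional, so some of their reads were shared with other genes.

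Of 8 mitotic kinesin genes, 7 were lower and 1 higher. Kif11, the motor that separates spindle poles, had 1468 and 1096 counts (1.35-fold lower, 1.25 to 1.46). Kif20a, a cytokinesis motor gene, had 1008 and 787 counts (1.29-fold lower, 1.17 to 1.42), and Kif2c, a microtubule-depolymerising kinesin gene, 550 and 451 (1.23-fold, 1.08 to 1.39). Kif20b (444 and 380 counts), Kif15 (414 and 355) and Kif4 (637 and 566) were 1.18-fold, 1.17-fold and 1.13-fold lower, with lower interval bounds of 1.02, 1.02 and 1.01. Kif23 (gene 71819, chromosome 9, 61915905 to 61946774), the central spindle motor of cytokinesis, had 517 and 592 counts and was higher, with a ratio of 1.14 (1.01 to 1.28). Its partner in the centralspindlin complex, Racgap1, went the other way, with 1360 and 949 counts (1.44-fold lower, 1.33 to 1.57).

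Kifc1, a minus-end motor gene, had 571 and 366 counts, 1.57-fold lower (1.38 to 1.80). This value is uncertain, because Kifc5b is a near-identical copy and reads can be divided between them. Kifc5b had 67 and 90 counts, and the sum of both was 1.41-fold lower (1.25 to 1.59), under the 1.5-fold limit.

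The 5 spindle assembly genes were all lower. After Tpx2 came Nusap1, a microtubule bundling gene (1380 and 1112 counts, 1.25-fold, 1.15 to 1.35), and Tacc3, a spindle stabiliser gene (1215 and 1041, 1.18-fold, 1.08 to 1.28). Dlgap5 had 378 and 321 counts (1.19-fold, 1.02 to 1.38), and Hmmr, with 733 and 647 (1.14-fold, 1.03 to 1.27), was the closest of the 5 to equality. Of 5 cytokinesis genes, 3 were lower: Racgap1, the contractile ring gene Anln (982 and 823 counts, 1.20-fold, 1.09 to 1.32) and the RhoA activator gene Ect2 (311 and 264 counts, 1.19-fold, 1.00 to 1.40). Prc1, which bundles the central spindle, had 1408 and 1385 counts, a ratio of 0.977 (0.907 to 1.05), and its log2 ratio of −0.03 was above 0 under TMM and DESeq2 scaling. Cep55, an abscission gene, had 422 and 382 counts, a ratio of 0.899 (0.781 to 1.03). Mki67, the Ki-67 gene that marks cycling cells, had 12086 and 10285 counts, 1.18-fold lower (1.15 to 1.22). Top2a, which codes the topoisomerase that untangles chromosomes, had 6206 and 5845 counts, 1.07-fold lower (1.03 to 1.11). These 2 transcripts had the most counts and the narrowest intervals, and both lay nearer to equality than the median of the list.

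**Figure D4:**
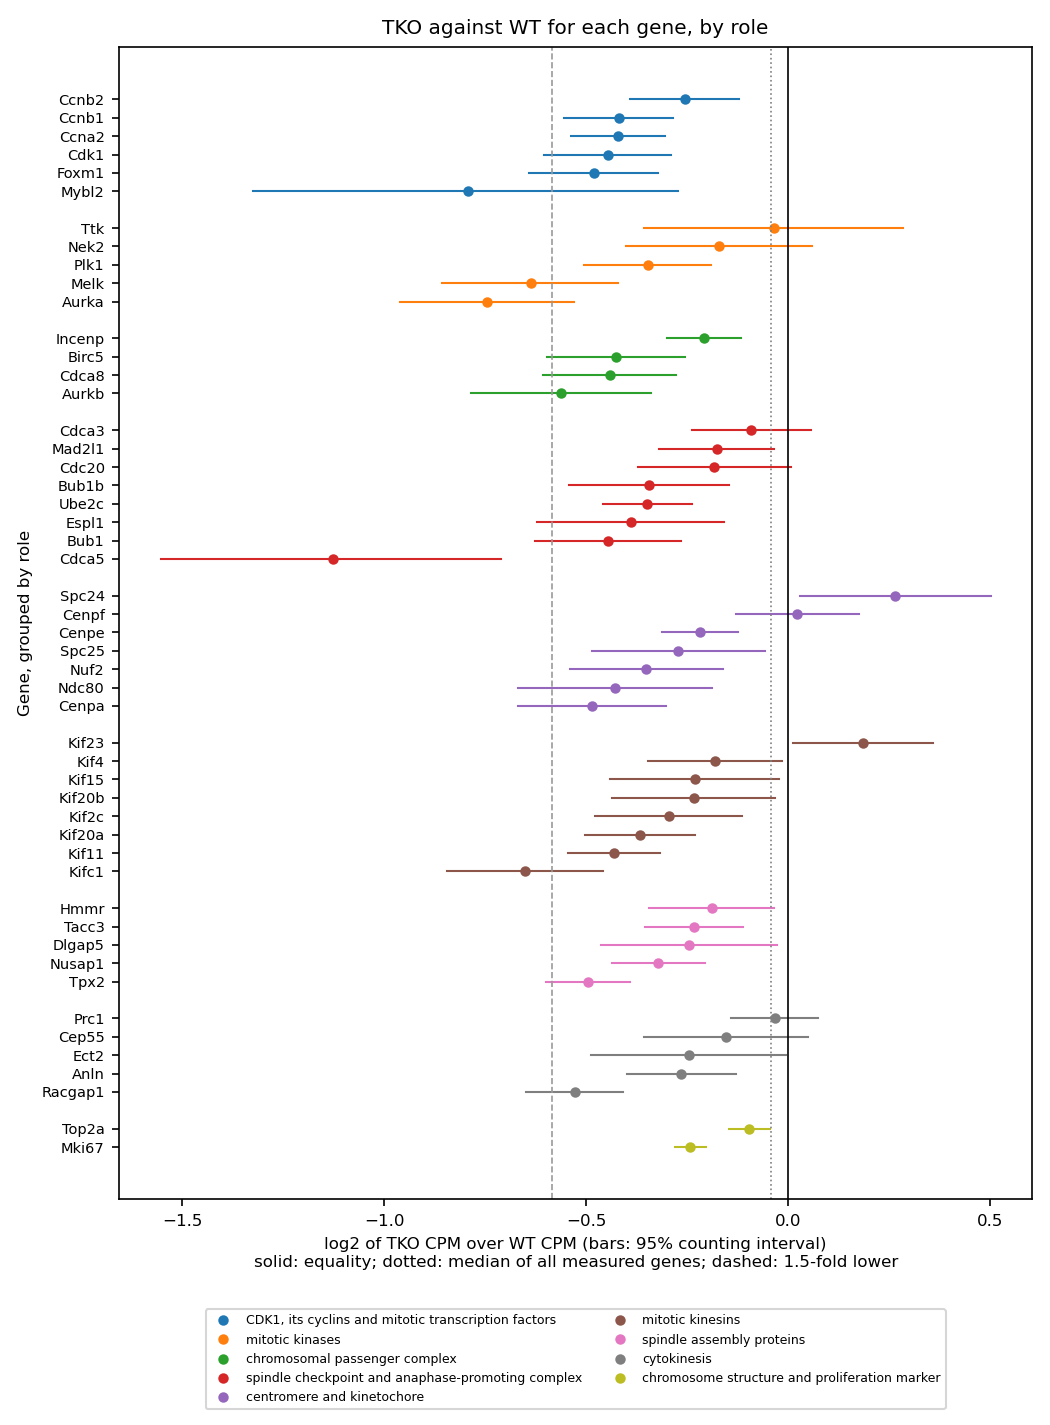
Log2 ratio of TKO over WT CPM (horizontal axis, no addition) for each of the 50 genes, grouped by role, with 95% counting intervals as bars. Most points lie between equality (solid line) and 1.5-fold lower (dashed line), and the bars of Spc24 and Kif23 lie wholly above equality.

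Other genes of division were described from lists in the same way. Over all measured genes 20.2% were lower and 14.1% higher, and 5.26% and 2.83% were so by 1.5-fold. Of 39 further kinetochore and centromere genes, 17 were lower and 0 higher, 5 by 1.5-fold, with a median of −0.27. Sgol1, which codes the shugoshin that protects centromeric cohesion, had 148 and 68 counts (2.19-fold lower, 1.63 to 2.97). Cenpl (110 and 68 counts), Cenpk (47 and 28) and Dsn1 (182 and 117) were also 1.5-fold lower. The number 1.5-fold lower was 3 under TMM scaling and 3 among the genes averaging 10 CPM or more. Of 43 further mitotic entry and spindle genes, 23 were lower and 0 higher, 8 by 1.5-fold, with a median of −0.27. The farthest were Depdc1b (39 and 19 counts), Pkmyt1, which codes a kinase that inhibits CDK1 (390 and 218 counts, 1.80-fold, 1.52 to 2.14), Cdca2 (224 and 134) and the kinesin gene Kif18b (319 and 200). Under TMM scaling 5 of this list were 1.5-fold lower.

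In 3 further lists the medians lay nearer to equality than that of the mitotic genes. None of 16 constitutive anaphase-promoting complex genes, 16 condensin and cohesin genes or 11 DREAM and MuvB genes was 1.5-fold apart. Among measured genes 5.26% were 1.5-fold lower and 2.83% higher, so lists this short would hold few such genes. Of these lists, 8, 8 and 4 genes were lower and 0, 1 and 0 higher, against 20.2% and 14.1% of measured genes. Their medians were −0.16, −0.11 and −0.12. The CHR element was in 13.3%, 46.2% and 37.5% of the matched promoters of these lists, in that order. It was in 35.5% of those of the further kinetochore genes, 45.2% of the further mitotic entry and spindle genes and 38.5% of the fibroblast and stromal markers described below, beside 73.8% of the mitotic and spindle genes. Of 39 DNA replication genes, 26 were lower and 0 higher, 5 by 1.5-fold, and their median of −0.41 was below that of the mitotic genes. Dut (77 and 37 counts), Gins1 (71 and 35), Chaf1b (138 and 73) and Tk1 (304 and 195) were the farthest. The first 3 of these had means under 10 CPM, and of the 30 genes averaging 10 CPM or more only 1, Tk1, was 1.5-fold lower. Their promoters held the CHR element in 12.5% of genes. The difference between the lists was not tested.

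Markers of other cells were read beside these values. Among all measured genes, 5.26% were 1.5-fold lower and 2.83% higher. The labelled macrophage identity was borne by its markers: Csf1r had 27207 and 30290 counts, Adgre1 10003 and 9812, and Cd68 10513 and 11651 (chosen after their values were seen). Of 18 macrophage markers 0 were 1.5-fold apart, with a median of 0.04 and a summed level of 16767 CPM in WT and 18208 in TKO. Fibroblast and stromal markers differed mostly in the same direction as the mitotic genes and by more. Of 21 measured, 17 were 1.5-fold lower and 0 higher, with a median of −1.15. Their summed level was 765.9 CPM in WT and 328.8 in TKO, and none of the 22 listed was at 0 in either library. Col1a1 had 2055 and 550 counts, Col3a1 217 and 60, Postn 271 and 79, and Col6a1 294 and 101. The 4 measured genes of the list that did not differ beyond counting error were Pdgfrb (478 and 510 counts), Mmp2 (56 and 58), Thy1 (33 and 39) and Pdgfra (32 and 30), of which Pdgfrb, Thy1 and Pdgfra code surface markers of fibroblasts (named after their values were seen). The part of this list in the difference of the mitotic genes was not tested.

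Markers of marrow precursors, lymphoid cells, red cells and platelets were read in the same way, again beside 5.26% of all measured genes 1.5-fold lower and 2.83% higher. Of 19 early myeloid and neutrophil precursor markers, 17 were in the table and 9 were measured, with 2 at least 1.5-fold lower, S100a9 (21 and 8 counts) and Cd34 (49 and 26), and a summed level of 113 and 103.4 CPM. Most of that sum was Csf3r, the receptor gene for granulocyte colony-stimulating factor, with 921 and 874 counts, followed by Mmp8 with 145 and 144. The precursor granule genes Elane (1 and 2 counts) and Prtn3 (3 and 0) and the precursor marker Ms4a3 (0 and 1) were at or under the floor of 3 counts. Others of the list were above it in both libraries, among them Mpo (12 and 18 counts), Chil3 (28 and 16), Kit (15 and 9) and Ngp (13 and 12). None of these differed beyond counting error, and Ctsg had 2 and 5 counts. Apart from S100a9 and Cd34, the genes of this list were named after their values were seen. Of 17 B, T and NK cell markers, 9 were in the table and 4 were measured, with Lck lower (32 and 10 counts) and a summed level of 11.52 and 8.58 CPM. Of 13 erythroid and megakaryocyte markers, 8 were in the table and only Pf4 was measured (273 and 299 counts). The others were Gp1ba (13 and 6 counts), Ppbp (10 and 5), Itga2b (9 and 9), Alas2 (2 and 1), Hba-a1 (1 and 1), Gp9 (1 and 0) and Klf1 (1 and 0). The part of these 3 lists in the difference of the mitotic genes was not tested.

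**Figure D5:**
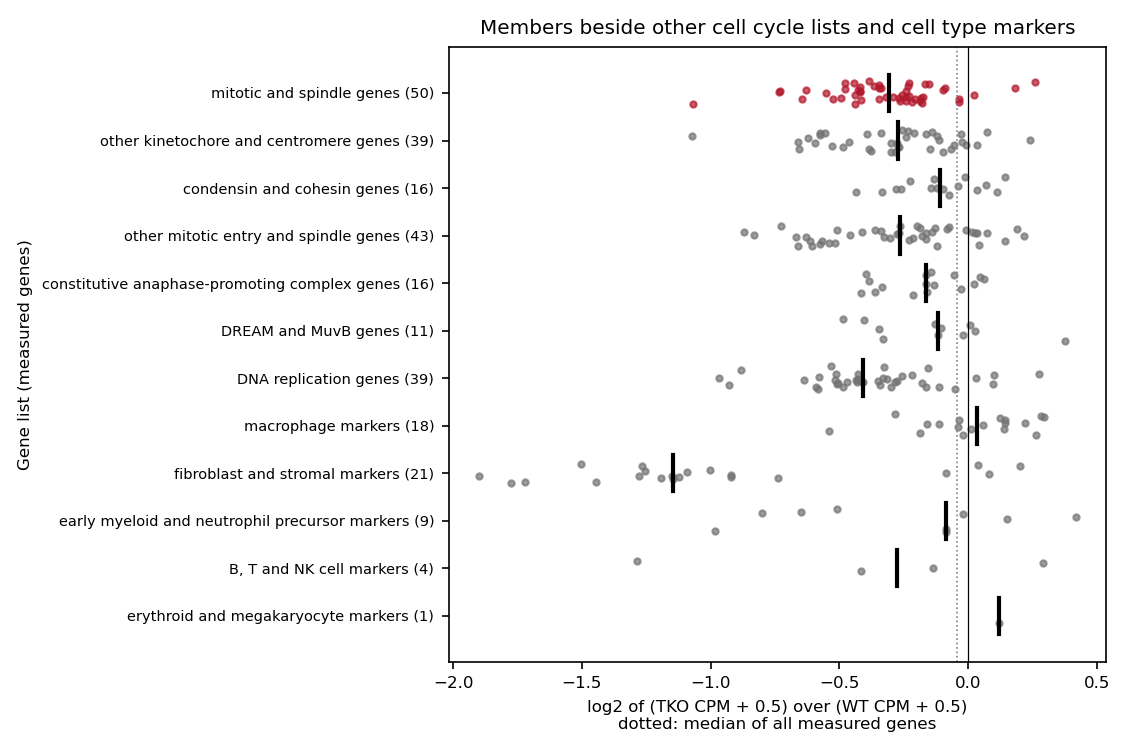
Log2 ratio of TKO over WT (horizontal axis) of each measured gene in the mitotic and spindle list (red) and in the other lists (grey), with the median of each list as a black bar and the number of genes in parentheses. The cell cycle lists lie left of equality with medians from −0.41 to −0.11, macrophage markers lie around it, and fibroblast and stromal markers lie farthest left at −1.15.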

How the data were processed

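Polyadenylated RNA of 1 WT and 1 TKO library was sequenced. HISAT2 2.0.4, Bowtie2 2.2.5, RSEM 1.2.12 and build mm10 are named, without roles, per the submitters' processing notes. The annotation, the filters and the use of strand are not given in the sources used here, so reads of overlapping genes cannot be told apart. The authors deposited estimated counts (whole for 79.2% of WT and 79.4% of TKO values, rounded here), FPKM values in which 0.01 stands for 0, a log2 ratio of the FPKM, a p-value and an adjusted value, which reaches 1.04 and is treated as a score. The deposited gene length column was used only across genes. The 1 of 16219 entries without a symbol held 1 count per library (9.29e-06% of WT, 9.23e-06% of TKO) and was left out.

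CPM, ratios and exact conditional Clopper-Pearson intervals were computed for every gene (Python 3.11.15, SciPy 1.17.1), and no test across replicates was possible. A check on simulated data drew counts with counting error only, as the intervals assume. It tested the computation and not that assumption. Intervals cover counting error only, since reads amplified by PCR and lacking molecular identifiers may repeat 1 molecule. Of the 50 genes, 15 had fractional estimates and 13 had exons overlapping another annotated gene, 11 of them on the opposite strand. edgeR 4.0.16 (TMM) and DESeq2 1.42.0 gave alternative scalings. Coordinates are from GENCODE M21 (GRCm38, the same assembly as mm10), promoters and microRNAs from RefSeq. The genes and lists were chosen with earlier results of these data known. Every gene of the mitotic list could be named, and of other lists up to 4 genes with the largest difference past the 1.5-fold call, or all where fewer than 3 were measured. Marker genes named outside this rule are said to be chosen after their values were seen.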

Additional observations from a re-analysis of the deposited data

How the results depend on the processing

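Under the 2 other scalings, both other pseudocounts, no filter on low values, a filter at 10 CPM and the deposited FPKM, between 45 and 47 of the mitotic genes were below 0 and their median log2 ratio ran from −0.31 to −0.26. TMM scaling moved the median of all measured genes from −0.04 to 0.00. The number lower beyond counting error was 33 with TMM, 34 with DESeq2 size factors and 33 with 99% intervals, beside 41. The share of all measured genes lower in that sense was not computed for these settings, so these counts have no background beside them. Of all measured genes, 613 were 1.5-fold lower as reported, 527 with TMM and 553 with DESeq2 size factors. The number 1.5-fold lower was 4 or 5 throughout, 1 at a 2-fold limit, and with the interval as the only criterion 41 were lower and 2 higher. Chosen after seeing the data, restriction to the 35 genes with whole estimates left 34 below 0 and a median of −0.27, and to the 37 without an exon overlap 34 and −0.29. Of the other lists, with TMM 3 further kinetochore and 5 further mitotic genes were 1.5-fold lower, and the macrophage median was 0.0832. At 10 CPM these were 3 further kinetochore genes, 1 DNA replication gene and 0 early myeloid markers. The erythroid and megakaryocyte list gave the same value for its 1 gene. No single gene with an interval that excluded equality changed sign. For changes under another scaling or filter the cause was not tested beyond the fewer genes or shifted totals. No paired analysis was possible because each genotype had 1 library. Depth limited single genes: typical intervals reached 0.168 on the log2 scale to either side.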
